A study of Mus musculus with 3 samples.

Results

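The genes described here are 9 members of the MHC class I and class II antigen presentation pathways, read in single YFP (+) microglia of the mouse lumbar spinal cord. They were taken by gene symbol from the deposited gene list, and all 9 were found among its 27998 genes. H2-K1 and H2-D1 are the class I heavy chains, B2m is the light chain that pairs with them, and Tap1 is a subunit of the transporter that brings peptides to them. H2-Aa, H2-Ab1 and H2-Eb1 are chains of the class II molecules, Cd74 is the invariant chain that guides these to the endosome, and Ciita is the transactivator of class II transcription.

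MHC class I molecules display peptides from inside the cell to CD8 T cells and are made by nearly all nucleated cells. Class II molecules display peptides from engulfed material to CD4 T cells and are made mainly by dendritic cells, B cells and activated macrophages. Resting microglia are known for little class II expression, and interferon gamma is the best known inducer of both pathways.

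The cells came from young adult Cx3cr1-creER-yfp/+ heterozygous mice on the C57BL/6 strain, in which the Cx3cr1 promoter drives the reporter, so any Cx3cr1-expressing cell could enter the sort. Lumbar cords were taken from naive mice or from mice whose sciatic nerve had been transected 24 h or 48 h before, with 3 animals pooled per group according to the methods and 1 droplet library made from each pool. No floxed allele is named for these groups. The methods state, for all experiments, that mice were studied after a course of tamoxifen, which activates this Cre. The 3 libraries were deposited as 1 joined matrix of unique molecular identifier (UMI) counts, in which cells differ by a barcode suffix of 1, 2 or 3 that the sources used here do not tie to a time point. The libraries are therefore called library 1, 2 and 3, no value can be given to the naive, 24 h or 48 h group, and with 1 library each no test between them was possible.

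Library 1 stood apart from the others. It held 609 of the 7522 cells at a median of 2218 UMIs per cell, against 3591 cells at 5952 UMIs in library 2 and 3322 cells at 5742 UMIs in library 3. Each cell was therefore thinned to 2000 UMIs drawn at random without replacement, which left 408, 3569 and 3284 cells and dropped 201, 22 and 38 shallower ones. Levels are UMIs per 1000000 UMIs (CPM) of the thinned cells of a library unless said otherwise. Intervals are 95% intervals for counting error only, exact Poisson for CPM and exact Clopper-Pearson for shares of cells, and do not cover the spread between animals. Of 7496 distinct barcodes, 25 occurred in more than 1 library. The microglia label held up against its own markers, with P2ry12, Tmem119, Csf1r and Cx3cr1 each found in over 99% of cells. Of the markers of other cell types, Cd163, Lyve1, Clec9a, Ccr7, Cd3e, Ly6g and Cldn5 had no UMI. Others of the same types were detected, among them Mrc1 in 12 cells, Pf4 in 43, Ccr2 in 28, Flt3 in 52, Nkg7 in 46, S100a8 in 74 and Mbp in 717. No population of another cell type was present in which to read the members, so their level from free RNA was not measured. The 225 UMIs of Gzma, a granzyme of cytotoxic lymphocytes, lay in 145 cells of library 2 (4.04% of its cells), 78 of them in 1 cell, with none in libraries 1 and 3. How these UMIs came to lie in many cells of that library was not tested.

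In GENCODE M21 on GRCm38, 6 of the 9 members lie on chromosome 17, in the mouse MHC. H2-K1 (ENSMUSG00000061232) spans chr17:33996017-34000347 on the minus strand and H2-D1 (ENSMUSG00000073411) spans chr17:35262730-35267499 on the plus strand. Tap1 (ENSMUSG00000037321) spans chr17:34187553-34197225, H2-Ab1 (ENSMUSG00000073421) chr17:34257689-34269419 and H2-Eb1 (ENSMUSG00000060586) chr17:34305867-34316674, all on the plus strand, and H2-Aa (ENSMUSG00000036594) spans chr17:34282744-34287823 on the minus strand. B2m (ENSMUSG00000060802) spans chr2:122147686-122153083 and Ciita (ENSMUSG00000022504) chr16:10480059-10528418, both on the plus strand, and Cd74 (ENSMUSG00000024610) lies on another chromosome. All 9 are protein coding. B2m, Tap1, H2-Eb1 and Ciita each overlap a gene on the opposite strand (Patl2, Psmb9, Gm20513 and Dexi). The class I heavy chains are close relatives, so the last 500 bases of each member's transcripts were compared with all other transcripts in words of 91 bases. Of the 1323 words of H2-K1, 1 was shared with H2-D1, H2-Q1, H2-Q6 and H2-Q7, and no word of the other 8 members was shared with another gene.

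The promoters of the 3 genes that make up the class I molecule are shown because these genes are read together below and because H2-K1 and H2-D1 have related upstream sequence. The sequences are the 180 bases before the transcription start in RefSeq on GRCm38.p6, printed 5′ to 3′ on the strand of the gene, at chr17:34000348-34000527 (minus strand) for H2-K1, chr17:35262914-35263093 (plus strand) for H2-D1 and chr2:122147507-122147686 (plus strand) for B2m. Capitals mark matches on either strand to ATTGG, the core of the Y box, to TGACG, a core shared by X2 and cyclic AMP response elements, to AANNGAAA, 2 half-sites of interferon regulatory factors, and to GGNNTTCCC, an NF-kB-like motif, which were picked after the sequences had been looked at.
H2-K1: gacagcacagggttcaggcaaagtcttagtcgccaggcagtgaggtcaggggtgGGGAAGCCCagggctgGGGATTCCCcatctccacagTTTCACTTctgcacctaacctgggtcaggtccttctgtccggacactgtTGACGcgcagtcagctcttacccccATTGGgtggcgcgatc
H2-D1: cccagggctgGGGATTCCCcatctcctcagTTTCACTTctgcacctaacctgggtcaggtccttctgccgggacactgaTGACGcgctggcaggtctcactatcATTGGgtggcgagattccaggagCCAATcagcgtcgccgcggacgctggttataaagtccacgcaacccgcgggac
B2m: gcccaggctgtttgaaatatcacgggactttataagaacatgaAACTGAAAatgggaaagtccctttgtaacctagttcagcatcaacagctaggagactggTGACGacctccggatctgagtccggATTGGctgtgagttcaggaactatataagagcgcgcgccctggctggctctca
All 3 windows held ATTGG as well as TGACG and also AANNGAAA. Among the same windows of all 32851 promoters in the table, 27.5% held ATTGG, 14.8% TGACG, 15.1% AANNGAAA and 3.56% GGNNTTCCC. The windows of H2-K1 and H2-D1 aligned over 119 columns at 89.9% identity. The window of H2-D1 lies inside the span given above because GENCODE starts that gene further upstream. A match to letters is a description of the sequence and no evidence of binding.

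Of the class II chains, H2-Aa (chr17:34287824-34288003, minus strand) and H2-Eb1 (chr17:34305687-34305866, plus strand) had windows in the table, and both are shown because class II promoters are known for an X2 element and a Y box.
H2-Aa: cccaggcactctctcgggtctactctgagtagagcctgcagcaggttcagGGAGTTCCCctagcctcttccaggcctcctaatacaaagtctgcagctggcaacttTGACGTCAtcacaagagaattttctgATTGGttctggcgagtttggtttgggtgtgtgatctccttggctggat
H2-Eb1: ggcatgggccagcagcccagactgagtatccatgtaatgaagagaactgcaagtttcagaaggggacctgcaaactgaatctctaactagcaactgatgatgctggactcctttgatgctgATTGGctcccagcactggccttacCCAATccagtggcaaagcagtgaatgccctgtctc
In H2-Aa the 8 capitals TGACGTCA are TGACG on both strands at once, and ATTGG occurs once. In H2-Eb1 ATTGG occurs 2 times and TGACG is absent. Neither window held AANNGAAA, which says only that these letters are not in it.

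Class I transcripts were found in nearly every microglia cell. B2m had a UMI in 7503 of 7522 cells, or 99.7% (95% interval 99.6 to 99.8%), H2-D1 in 7352 cells, or 97.7% (97.4 to 98.1%), and H2-K1 in 6236 cells, or 82.9% (82.0 to 83.7%). At 2000 UMIs per cell the shares were 99.7% for B2m, 83.8% for H2-D1 and 51.1% for H2-K1, so the gap between depths was widest for the gene with the fewest UMIs. No small set of cells carried these transcripts: the 10 cells richest in each held at most 0.726% of its UMIs.

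Class I was highest in library 1 at equal depth. H2-D1 stood at 1441 CPM (1360 to 1526) in library 1, 921 CPM (899 to 944) in library 2 and 945 CPM (922 to 969) in library 3. B2m stood at 5438 CPM (5279 to 5600), 3504 CPM (3460 to 3547) and 3052 CPM (3010 to 3094) in the same order. H2-K1 stood at 461 CPM (415 to 510), 333 CPM (320 to 347) and 401 CPM (386 to 417). For H2-D1 and B2m the interval of library 1 lay clear above both others, and for H2-K1 it lay above library 2 and overlapped that of library 3 slightly. Libraries 2 and 3 did not differ in H2-D1 beyond counting error, whereas B2m was higher in library 2 and H2-K1 higher in library 3.

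**Figure D1:**
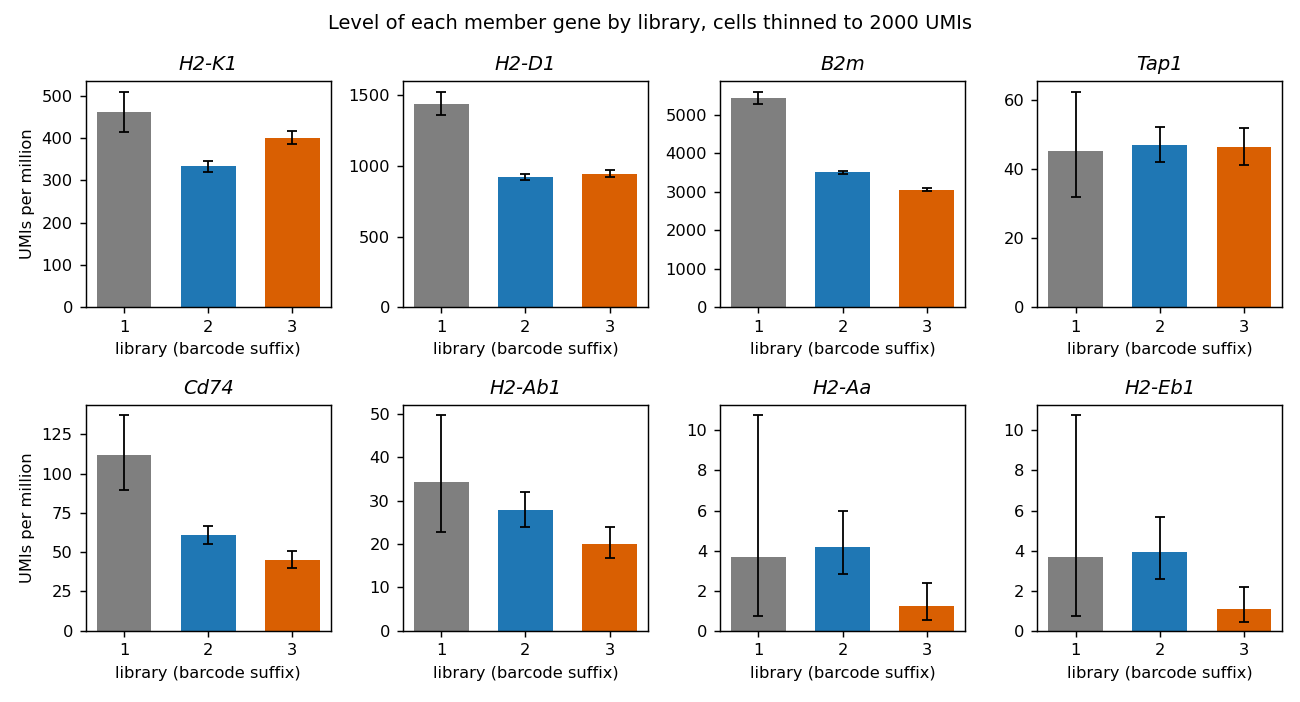
Level of 8 member genes in CPM (vertical axis, from 0, a scale of its own in each panel) in libraries 1, 2 and 3 (horizontal axis), in cells thinned to 2000 UMIs. Bars are the level of the 1 library and error bars its exact Poisson 95% interval. H2-D1 and B2m were highest in library 1, Tap1 was level across libraries, and the intervals of H2-Aa and H2-Eb1 in library 1 span most of their panels. Ciita, with 1 UMI in all, is not drawn.

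Summed per cell, H2-K1, H2-D1 and B2m gave 14.7 ± 6.24 UMIs (mean ± SD over 408 cells) in library 1, 9.52 ± 3.69 (3569 cells) in library 2 and 8.80 ± 3.53 (3284 cells) in library 3. The 5th, 50th and 95th percentiles of cells were 6, 14 and 26 UMIs in library 1, 4, 9 and 16 in library 2, and 4, 8 and 15 in library 3. The distributions overlapped, so a single cell could not be placed by its class I UMIs. Library 1 was also the more variable. The variance of the sum was 2.66 times its mean there, against 1.43 and 1.42 times in libraries 2 and 3, where pure counting error would give a ratio of 1.

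**Figure D2:**
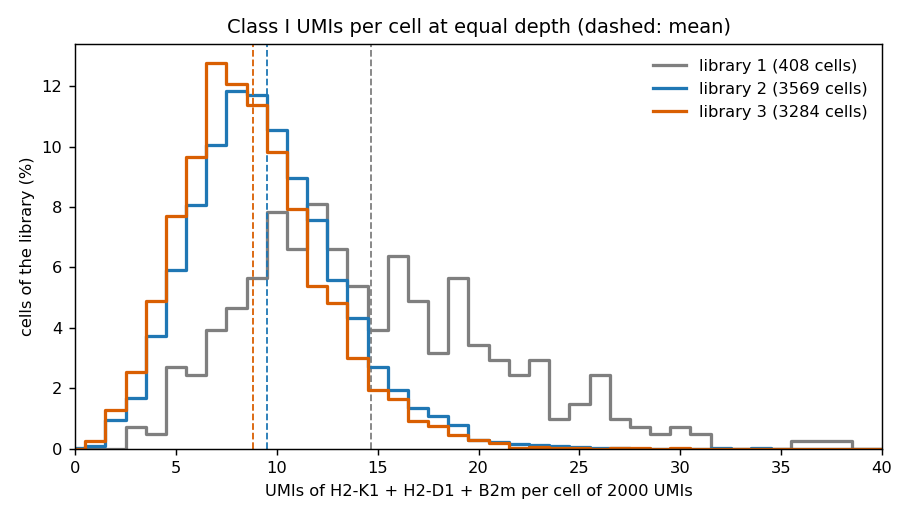
Distribution of the summed UMIs of H2-K1, H2-D1 and B2m per cell (horizontal axis) as the percent of the cells of each library (vertical axis), all cells thinned to 2000 UMIs. Dashed lines are the means of 14.7, 9.52 and 8.80 UMIs in libraries 1, 2 and 3. The curve of library 1 is wider and lies to the right of the other 2, which nearly coincide.

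The log2 ratio of the class I sum (pseudocount 1 CPM) was -0.63 (-0.66 to -0.59) for library 2 over library 1, -0.74 (-0.78 to -0.70) for library 3 over library 1 and -0.11 (-0.14 to -0.09) for library 3 over library 2. The same ratios were taken for the 8085 genes with a mean of at least 10 CPM, whose medians were -0.09, -0.09 and -0.02. Of these genes, 14.8%, 12.2% and 38.1% had a lower ratio than the class I sum, which was thus toward the low end against library 1 but among many others. In library 1, however, 3 UMIs make 3.68 CPM. Genes near the minimum of 10 CPM thus rested on few UMIs there, and counting error widened the spread of their ratios. How many of the genes below the class I sum were of this kind was not counted. Library 1 also differed in depth and in its mitochondrial share (a median of 0.945% of UMIs against 1.52% and 1.20%), and their part in these ratios was not tested. In cells of 2000 to 4000 UMIs before thinning, a window chosen after the data had been seen, the direction of all 3 ratios was as above.

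Of the 9 members, 6 passed the minimum of 10 CPM and were set against a difference of 2 times. No member was at least 2 times higher or lower between libraries 2 and 1, where 4.5% of all genes tested were higher and 4.13% lower. Between libraries 3 and 1, where 3.93% of genes were higher and 5.49% lower, Cd74 was the 1 member past 2 times, lower in library 3 with a log2 ratio of -1.29 (-1.65 to -0.95). That call rested on few cells, as the ratio was -0.65, or 44.0 against 69.5 CPM and under 2 times, without the cells of at least 10 class II UMIs described below (5 thinned cells of library 1 and 2 of library 3). Between libraries 3 and 2 no member passed, with 1.25% of all genes higher and 1.63% lower. The count of 1 of 6 is too small to set apart from these shares.

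Tap1 did not share the pattern of the class I chains. It stood at 45.3 CPM (31.9 to 62.5) in library 1, 46.9 CPM (42.0 to 52.2) in library 2 and 46.4 CPM (41.4 to 52.0) in library 3, with log2 ratios of 0.05 (-0.44 to 0.58), 0.03 (-0.46 to 0.57) and -0.01 (-0.24 to 0.21) for library 2 over 1, 3 over 1 and 3 over 2. The ratios of the class I sum against library 1 lay outside these intervals, while that of H2-K1 for library 3 over library 1, -0.20, lay inside. A Tap1 UMI was found in 1790 cells, or 23.8% (22.8 to 24.8%), and in 8.86% of thinned cells. Its variance per thinned cell was 0.912, 1.03 and 0.999 times its mean in libraries 1, 2 and 3, near the 1 of counting alone. With a mean of only 0.09 UMIs per cell in each library, this ratio stays near 1 even where cells differ moderately. It therefore cannot show whether Tap1 varied between cells.

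The other class I pathway genes, a list of 22 of which 20 passed the minimum, did not move as a block. Between libraries 2 and 1, none was 2 times higher and 3 of 20 were 2 times lower, where 4.5% and 4.13% of all genes tested were, with a median log2 ratio of -0.28 against -0.09 for all genes. The 3 were H2-T23, H2-T24 and Cd1d1. H2-T23, a nonclassical heavy chain, stood at 137 CPM in library 1, 51.0 in library 2 and 49.3 in library 3. H2-T24, another heavy chain gene of the T region, stood at 19.6, 7.57 and 9.44 CPM, and Cd1d1, which presents lipids, at 29.4, 10.2 and 12.5 CPM. H2-T24 passed the minimum mean of 10 CPM only through library 1, so its call as lower is partly built in by that minimum. The intervals of H2-T24 (-2.20 to -0.47) and Cd1d1 (-2.21 to -0.79) for library 2 over library 1 reached inside 2 times. Between libraries 3 and 1, H2-T23 and Cd1d1 were again lower and Calr, a chaperone of heavy chain folding, was higher at 728 CPM against 327 CPM. This was 1 of 20 higher and 2 lower, with 3.93% and 5.49% of all genes, and a list median of -0.06. The intervals of Cd1d1 (-1.91 to -0.52) and Calr (0.98 to 1.34) reached inside 2 times, while that of H2-T23 (-1.79 to -1.15) did not. No gene of the list passed between libraries 3 and 2, where the list median was 0.10 and that of all genes -0.02.

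Among the partners of the members, the second transporter subunit Tap2 stood at 87.0, 43.0 and 55.3 CPM in libraries 1, 2 and 3, and so was highest in library 1 while Tap1 was level. The immunoproteasome subunit Psmb8 stood at 237, 290 and 230 CPM and Psmb9 at 96.8, 64.4 and 51.5 CPM. Psmb8 was thus highest in library 2, and Psmb9 was highest in library 1 and lowest in library 3. Psmb8 did not differ between libraries 3 and 1 beyond counting error, with a log2 ratio of -0.04 (-0.26 to 0.18). Because Tap1 and Psmb9 overlap on opposite strands, reads of that overlap could be told apart only by a counting step that used strand. The best measured genes of the list were Pdia3, at 836, 1059 and 1005 CPM, Calr and Canx (294, 292 and 327 CPM), all chaperones of the endoplasmic reticulum that serve many proteins. Nlrc5, the class I transactivator, was found in 118 cells with 121 UMIs and did not reach the minimum.

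**Figure D3:**
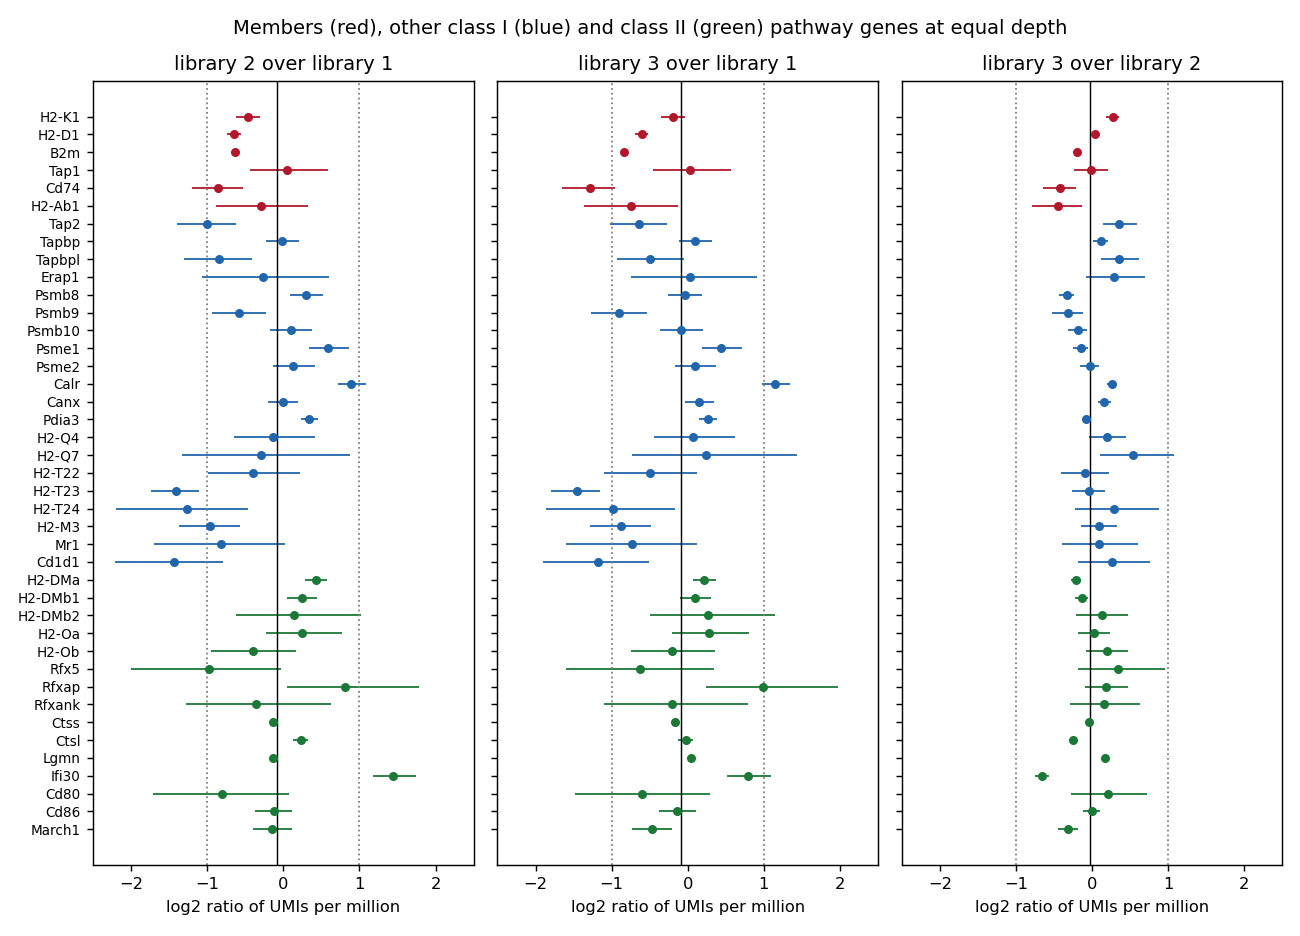
Log2 ratio of CPM (horizontal axis) between libraries for the 6 members above the minimum (red) and for the other class I (blue) and class II (green) pathway genes, in cells thinned to 2000 UMIs. Bars are intervals for counting error, dotted lines mark 2 times and the black line the median of all genes tested. In both comparisons with library 1, the points of H2-K1, H2-D1, B2m, Cd74 and H2-Ab1 lie left of the median and that of Tap1 right. All points lie within 2 times between libraries 3 and 2.

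Class II transcripts were sparse and uneven among genes. Cd74 had a UMI in 1858 cells, or 24.7% (23.7 to 25.7%), H2-Ab1 in 908 cells, or 12.1% (11.3 to 12.8%), H2-Aa in 102 cells, or 1.36% (1.11 to 1.64%), and H2-Eb1 in 98 cells, or 1.30% (1.06 to 1.59%). At equal depth the shares were 9.59%, 4.66%, 0.468% and 0.523%. Ciita was counted once, in 1 cell of library 2. The single UMI is below the limit of 3 counts used for a count of 0, so a level of Ciita could not be given. Most class II counts were single UMIs, in 95 of the 102 cells with H2-Aa, 93 of 98 with H2-Eb1 and 826 of 908 with H2-Ab1.

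Cd74 was highest in library 1, at 112 CPM (89.8 to 137) against 60.8 CPM (55.2 to 66.8) in library 2 and 45.1 CPM (40.1 to 50.5) in library 3. These 3 intervals did not overlap. H2-Ab1 stood at 34.3 CPM (22.8 to 49.6), 27.7 CPM (24.0 to 31.9) and 20.1 CPM (16.8 to 23.8), where libraries 2 and 3 were apart and library 1 overlapped both. H2-Aa stood at 3.68 CPM (0.758 to 10.7), 4.20 CPM (2.84 to 6.00) and 1.22 CPM (0.526 to 2.4), and H2-Eb1 at 3.68 CPM (0.758 to 10.7), 3.92 CPM (2.61 to 5.67) and 1.07 CPM (0.428 to 2.20). Both were thus lower in library 3 than in library 2 by more than counting error, on 8 and 7 thinned UMIs in library 3, and library 1, with 3 UMIs each, could not be placed. For H2-Aa, 6 of the 30 thinned UMIs of library 2 lay in 1 cell. Without the cells of at least 10 class II UMIs described below, H2-Aa stood at 3.23 CPM in library 2 and 1.22 CPM in library 3. H2-Eb1 then stood at 3.93 and 1.07 CPM. No interval was taken without these cells, so the gap of H2-Aa rests partly on 1 cell.

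The class II level of library 1 rested partly on few cells. In all cells, without thinning, 12 cells held at least 10 UMIs of H2-Aa, H2-Ab1, H2-Eb1 and Cd74 together, 6 in library 1, 4 in library 2 and 2 in library 3. This limit was set after the counts had been seen. It was on raw counts, so the shallower cells of library 1 needed a larger share of their UMIs to pass. A cell of library 2 passed with 13 of 14649 UMIs, and a cell of library 1 with 10 of 2909. In library 1 these 6 of 609 cells held 11 of 12 H2-Aa UMIs, 6 of 9 H2-Eb1 UMIs, 20 of 56 H2-Ab1 UMIs and 59 of 142 Cd74 UMIs. In library 2 the 4 cells held 24 of 89, 16 of 97, 21 of 600 and 152 of 1578 UMIs of the same genes. In library 3 the 2 cells held 1 of 31, 0 of 11, 7 of 375 and 21 of 907. Without the 12 cells and without thinning, Cd74 went from 106 to 62.6 CPM in library 1 and from 65.5 to 59.3 in library 2. In library 3 it went from 45.9 to 44.8 CPM. At equal depth without these cells, Cd74 stood at 69.5, 56.7 and 44.0 CPM in libraries 1, 2 and 3. Library 1 thus stayed highest for Cd74 by a smaller gap, for which no interval was taken. H2-Ab1 changed its order at equal depth without these cells, to 23.6 CPM in library 1 and 26.9 CPM in library 2. The cells were chosen by these counts, so some fall without them follows from the choice.

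At equal depth the share of cells with several class II UMIs was again highest in library 1. At least 5 UMIs of the 4 genes were counted in 5 of 408 thinned cells of library 1, or 1.23% (0.399 to 2.84%), in 1 of 3569 of library 2, or 0.028% (0.000709 to 0.156%), and in 2 of 3284 of library 3, or 0.0609% (0.00738 to 0.220%). The interval of library 1 lay above both others at this limit and at limits of 3 and 4 UMIs. At 2 UMIs, the shares were 3.68% (2.07 to 5.99%), 1.60% (1.21 to 2.06%) and 1.07% (0.743 to 1.48%), and libraries 1 and 2 lay barely apart. A single UMI of a class II chain gene, by contrast, did not set library 1 apart, at 6.13% (4.0 to 8.91%) against 6.56% (5.77 to 7.42%) and 4.35% (3.68 to 5.11%).

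**Figure D4:**
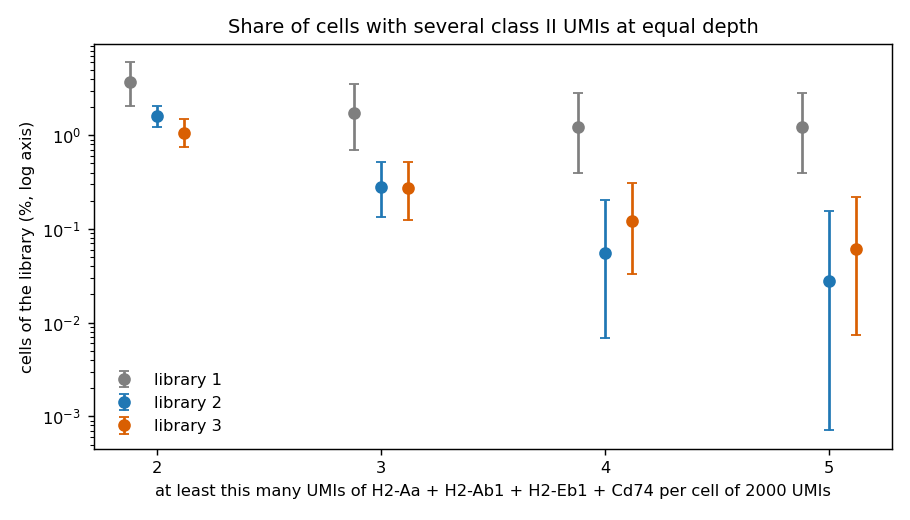
Share of cells in each library (vertical log axis, percent) with at least 2, 3, 4 or 5 summed UMIs of H2-Aa, H2-Ab1, H2-Eb1 and Cd74 (horizontal axis), in cells thinned to 2000 UMIs. Points are shares and bars exact 95% intervals for counting error. Library 1 fell to 1.23% of cells at 5 UMIs, while libraries 2 and 3 fell to 0.028% and 0.0609%.

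The cells with the most class II RNA differed among themselves in their other genes. The richest, in library 2, had 8925 UMIs in all, of which 23 were H2-Aa, 19 H2-Ab1, 16 H2-Eb1 and 121 Cd74. It also carried 11 UMIs of P2ry12 and 18 of Tmem119, at 0.544 and 0.590 times the CPM of its library, and 2 UMIs of the border macrophage marker F13a1, with none of Mrc1, Cd163, Flt3, Zbtb46 or Ccr2. Of the 134 genes other than members with at least 10 UMIs in this cell, Apoe, a lipid carrier, and Lyz2, the macrophage lysozyme, had the largest ratios to the library, at 29.3 and 24.5 times (15126 against 517 CPM and 9636 against 393 CPM). Its class I genes were near the library's level, with 21 B2m, 9 H2-D1 and 4 H2-K1 UMIs, or 0.675, 1.14 and 1.38 times. A doublet of a microglia cell with another cell was not tested for this barcode.

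In library 1 the richest cell had 3 H2-Aa, 10 H2-Ab1, 2 H2-Eb1 and 13 Cd74 UMIs of 3837, with 54 class I UMIs, 17 of P2ry12 and 14 of Tmem119. A second cell of that library, with 2 H2-Aa, 1 H2-Ab1, 2 H2-Eb1 and 8 Cd74 UMIs of 1506, had 1 class I UMI, no P2ry12 and 3 Tmem119. The other 4 of the 6 cells in library 1 had 26 to 36 class I UMIs, 1 to 13 of P2ry12 and 9 to 14 of Tmem119. The 3 chain genes and Cd74 were all found in only 4 cells of the 7522, 2 in library 1 and 2 in library 2.

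A wider group of 334 cells, or 4.44% (3.99 to 4.93%), had UMIs of at least 2 of the 4 genes. Library 1 held 16 of them (2.63% of its cells), library 2 held 217 (6.04%) and library 3 held 101 (3.04%). They were deeper than most, with a median of 7435 UMIs, and at equal depth the order changed, to 1.96% (0.850 to 3.83%), 0.672% (0.431 to 0.999%) and 0.487% (0.279 to 0.790%), with library 1 above library 3 by more than counting error. All 334 cells had Tmem119, Csf1r and Cx3cr1, and 333 had P2ry12. Of the border macrophage markers, Pf4 was found in 4, Cbr2 in 3 and F13a1 in 2 of them, and Mrc1, Cd163, Lyve1 and Ms4a7 in none. These were shares of 1.20%, 0.898% and 0.599%, against 0.543%, 0.181% and 0.139% of the other cells. At equal depth the shares were 0, 0.304% and 0 against 0.115%, 0.0433% and 0.0577%. Of the monocyte markers, Ccr2, Plac8 and S100a4 were found in 2 cells each. Of the dendritic cell markers, Flt3 was found in 7 cells, Itgae in 6 and Zbtb46 and Xcr1 in 2 each, with Clec9a, Cd209a and Ccr7 in none. Batf3 was found in 149 of them (44.6%, against 37.2% of the other cells, and 13.7% against 15.3% at equal depth). The B cell gene Cd79b was found in 110 (32.9% against 23.1%, and 14.0% against 9.39% at equal depth). Both were common outside the group as well, so neither alone marks another cell type here.

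Markers of further cell types were rare in the group or common outside it as well. Gzma was found in 14 of the 334 cells (4.19%, against 1.82% of the other cells, and 1.52% against 0.649% at equal depth), all of its UMIs being in library 2, which held most of the group. The neuronal gene Snap25 was found in 0.898% against 0.237%, and in 0 against 0.144% at equal depth. Nkg7, S100a8, S100a9, Gfap, Snap25 and Hba-a1 were found in 3 cells each, Hbb-bs and Aldoc in 4 each, and Hbb-bt and Hba-a2 in 2 each. Mag was found in 92 (22.2% of other cells) and Pecam1 and Mbp in 44 each (9.71% and 9.36%). Microglia genes other than those above ranged from 173 cells for Sall1 to 334 for Olfml3, with Fcrls in 330, Gpr34 in 332 and Siglech in 326. The 10 genes with the largest ratio of share, with shares in thinned cells, were 1700018L02Rik, Gm15420, Hist1h2ag, Atp10a, Gm27022, Gm10874, Gm21814, Phf19, Gm37276 and a predicted gene named only by its clone, each in only 3 or 4 of 329 cells. At such counts they do not describe the group.

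In library 1, the cells with class II RNA that were deep enough to be thinned had more class I UMIs. Of its 16 cells with at least 2 class II genes before thinning, 11 were thinned. Those left out include the cell above with 1506 UMIs in all, 13 class II UMIs and 1 class I UMI. The 11 thinned cells had a median of 21 class I UMIs (17 to 26), against 13 (3 to 38) in the 397 other cells. The means were 21.3 ± 3.50 and 14.5 ± 6.21. H2-D1 contributed 5.18 against 2.82 UMIs, B2m 14.7 against 10.8 and H2-K1 1.36 against 0.909. The interferon-stimulated list of 22 genes had a median of 4 UMIs in these cells (1 to 57) against 2 (0 to 28). In libraries 2 and 3 the groups were close, with class I means of 9.78 against 9.50 in 217 and 3352 cells and 9.60 against 8.77 in 101 and 3183 cells. Class II cells were deeper before thinning in each library, with medians of 2887 against 2483, 8017 against 5891 and 6881 against 5740 UMIs, and the part of depth was not tested.

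The other class II pathway genes are not limited to class II positive cells in these data. The list held 17 genes, of which 15 passed the minimum. H2-DMa and H2-DMb1, the chains that load peptides onto class II, were found in 93.3% and 78.7% of all cells, at 496, 668 and 577 CPM and at 278, 329 and 298 CPM in libraries 1, 2 and 3. The best measured were the lysosomal proteases Ctss (11135, 10150 and 9884 CPM), Lgmn (5212, 4760 and 5360 CPM) and Ctsl (1112, 1303 and 1091 CPM), which also act outside this pathway. Ifi30, a lysosomal thiol reductase, was the 1 gene of 15 past 2 times, higher in library 2 than in library 1 at 369 against 135 CPM, with 234 CPM in library 3. This is near the 4.5% of all genes tested that were higher in that comparison. None was past 2 times between libraries 3 and 1 or 3 and 2. The list medians were -0.13, -0.03 and 0.03 on the log2 scale for library 2 over 1, 3 over 1 and 3 over 2, and H2-Eb2 had no UMI.

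Co-expression of H2-D1 with the other class I genes was stronger in library 1, while that of H2-K1 with B2m was weak in every library. Across its 408 thinned cells, Pearson r of log2(UMIs + 1) was 0.33 for H2-D1 and B2m, 0.22 for H2-K1 and H2-D1 and 0.06 for H2-K1 and B2m. In libraries 2 and 3 r was 0.11 and 0.11, 0.04 and 0.04, and 0.06 and 0.04 for the same pairs, values too weak in sparse counts to be a finding. Without the cells of at least 10 class II UMIs, r in library 1 was 0.33 and 0.22 for the first 2 pairs. All cells of a library share its preparation and these values describe 3 libraries, not conditions. Shares found together said little for class I, since these genes were present in most cells, and the ratio of cells with both to the product of the shares was 1.01 for H2-K1 and H2-D1.

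Cd74 and H2-Ab1 had an r of 0.35 in library 1 and 0.04 in library 2. The value of library 1 rested on its richest cells, since it was 0.02 in the 403 cells without those of at least 10 class II UMIs. H2-Ab1 was found in too few cells of library 3 for an r, as under 5% of them had a UMI. Counted as cells with both genes, H2-Aa and H2-Eb1 were found together in 10 cells where the product of their shares within libraries gives 1.65, a ratio of 6.07 (2.91 to 11.2), and in 6 cells against 1.53, a ratio of 3.93 (1.44 to 8.54), without the 12 richest. H2-Aa and H2-Ab1 were found together in 22 cells against 13.1, a ratio of 1.68 (1.05 to 2.54), and 1.30 (0.741 to 2.1) without the richest. For Cd74 and H2-Ab1 the ratio was 1.15 (1.02 to 1.30) in 271 cells, and 1.12 (0.990 to 1.27) in 261 cells without the richest. These counts were not thinned, and deeper cells hold more of any gene. At equal depth, in the random draw used here, only H2-Aa with H2-Ab1 kept an interval above 1 among the 6 class II pairs, with 6 cells against 1.67 and a ratio of 3.59 (1.32 to 7.80). Such counts depend on the draw. With seed 2 the ratio of this pair was 4.74. That of H2-Aa with H2-Eb1 went from 4.53 to 13.5, and that of H2-Ab1 with H2-Eb1 from 0.527 to 3.03.

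**Figure D5:**
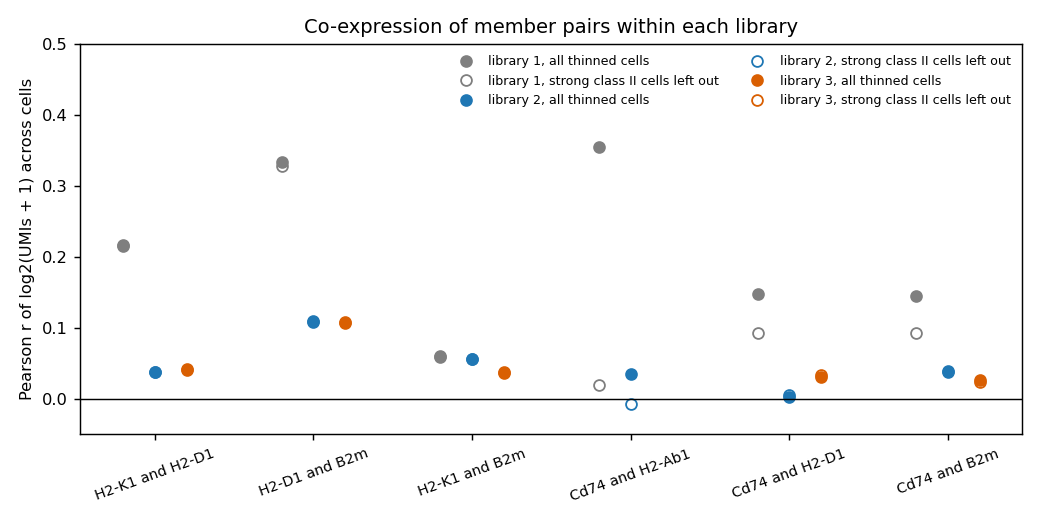
Pearson r of log2(UMIs + 1) across thinned cells (vertical axis) for 6 pairs of members (horizontal axis) in each library, with all thinned cells (filled) and without cells of at least 10 class II UMIs (open). For Cd74 and H2-Ab1 in library 1, r was 0.35 with and 0.02 without these cells, while the 2 class I pairs of H2-D1 in library 1 hardly moved, at 0.33 and 0.22. Library 3 has no point for Cd74 and H2-Ab1.

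The genes most like the class I sum across cells were mostly lysosomal and complement genes. By the mean of r in libraries 2 and 3, over 8079 tested genes other than members, the 10 highest were Cst3 (0.20), a protease inhibitor, Ctss (0.18), the complement genes C1qb (0.12), C1qa (0.10) and C1qc (0.07), Itm2b (0.11), Ctsd (0.07), Sparc (0.06), Ctsb (0.06) and Psap (0.06). The 95th percentile of all genes was 0.02. These are among the most abundant transcripts of the cells, and r is larger for abundant genes in sparse counts. In library 1, Ctss had an r of 0.37.

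The class I sum differed by at most 1.15 times between the cell states compared. Within each library, equal numbers of cells with the most and with the fewest UMIs of the interferon-stimulated list were compared. The class I sum was 15.6 ± 6.24 against 13.6 ± 6.01 UMIs in library 1 (136 cells each), 9.82 against 9.33 in library 2 (1189 cells each) and 8.88 against 8.90 in library 3 (1094 cells each), ratios of 1.15, 1.05 and 0.998. Leaving out cells with at least 2 class II genes gave 1.14, 1.06 and 0.993. The interferon list had means of only 2.89, 2.97 and 2.06 UMIs per cell in libraries 1, 2 and 3. Counting error thus took part in sorting these cells, which can draw such ratios toward 1. Between cells high and low for the early gene list, chosen alike, which holds Fos, Jun, Egr1 and other immediate early genes, the ratios were 0.897, 0.972 and 0.934. In library 2, the 1260 cells with at least 2 UMIs of the cycling list had 0.997 times the class I sum of the 1075 cells with none. Libraries 1 and 3 had 2 and 9 such cells, too few to compare. The members did not always move alike. In library 2, the ratios of cycling cells to cells with no cycling UMI were 0.916 for H2-D1, 1.04 for H2-K1 and 1.02 for B2m. In library 3, cells high for the early gene list had 0.862 against 0.727 H2-K1 UMIs (1.19 times), 5.80 against 6.46 B2m UMIs (0.898 times) and 1.88 against 1.96 H2-D1 UMIs (0.961 times). In library 1, cells high for the interferon list had 3.14 against 2.54 H2-D1 UMIs, 11.5 against 10.1 B2m UMIs and 0.926 against 0.912 H2-K1 UMIs. Cells of a library are not replicates, so no test stands behind these differences.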

How the data were processed

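Cells were sorted for YFP with size selection and doublet exclusion, and meninges were removed before dissociation, according to the study's methods. The authors deposited UMI counts per gene and cell, not normalized. The submitters' processing notes name Cell Ranger 2.1.1 and mm10. The labels name kit version 3.1 and the methods version 3. Deposited values of no library were left unused (0 columns).

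Counts were summed per library. Cells were thinned to 2000 UMIs (seed 1), CPM ratios used a pseudocount of 1 and a mean of at least 10 CPM, and a gene was called at 2 times. A count of 0 was limited at 3 counts. No cell was filtered and no doublet removed here. As each suffix holds 1 library, no test was made. Ratio and thinning steps were checked on simulated libraries. Gene positions were matched for 27722 of 27998 identifiers. Scripts ran in Python 3.11.15 with pandas 2.3.3, Biopython 1.88, matplotlib 3.10.9, numpy 2.4.6 and scipy 1.17.1.

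Members, gene lists and markers were chosen with earlier results of these data known. Named genes are the members, list genes past 2 times, the 3 best measured of each list, Nlrc5, Tap2, Psmb8, Psmb9, H2-DMa and H2-DMb1, the 10 genes most like the class I sum, the 10 with the largest share ratio in cells with at least 2 class II genes, and markers found in at least 2 of those. Some markers are not reported here. Apoe and Lyz2 were named after their values were seen. Alternatives were other depths, seeds, cell filters, pseudocounts, CPM and UMI minimums, scaling, cells without cycling UMIs and leaving out each library.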

Additional observations from a re-analysis of the deposited data

How the results depend on the processing

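No paired analysis was possible because each suffix is 1 library and no result comes from a test. Alternatives gave 131 values. Of these, 68 lay inside the interval of the reported value (for counts, inside 1.5 times), 62 moved and 1 changed direction, and the cause was not tested. Thinned to 1000 UMIs, the class I log2 ratios were -0.57 (library 2 over 1) and -0.68 (3 over 1), and with the median of genes tested set to 0, -0.54 and -0.65. In cells of 2000 to 4000 UMIs, chosen after the data had been seen, the ratio of 3 over 2 was -0.083. The genes past 2 times numbered 698 (2 against 1), 762 (3 against 1) and 233 (3 against 2), with 163, 205 and 77 at a mean of at least 50 CPM and 2191, 2238 and 708 with no minimum. The 14.1% of cells with a class II chain gene became 1.16% with at least 2 UMIs per gene and 5.54% at equal depth, and ranged from 10.7% to 16.2% with 1 library left out. The 4.44% with at least 2 of 4 genes became 0.239% and 0.661%, and ranged from 2.98% to 5.55%, lowest without library 2 and highest without library 3. Thinned to 1000 UMIs, the class I ratio of cells high over low for the interferon list in library 2 turned from 1.05 to 0.99965. For the early gene list it was 0.8455 in library 1, 1.01 in library 2 and 0.986 in library 3. For the cycling list in library 2 it was 0.908. Ratios crossed 1 in 7 values, that of the interferon list from an interval that excluded 1 and 6 from intervals that held it.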

Other observations

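Genes most like the class I sum within library 1 were not part of the rule for named genes and were looked up after its wider spread had been seen. The 10 with the highest r there were Ctss (0.37), Apoe (0.23), Itm2b (0.22), C1qb (0.21), Cd52 (0.19), Cst3 (0.19), Lyz2 (0.19), Rps18 (0.19), Ifi27l2a (0.18) and Daam1 (0.17). Apoe and Lyz2 were also the genes with the largest ratios in the richest class II cell of library 2. In libraries 2 and 3 the r of Apoe was 0.06 and 0.04 and that of Lyz2 0.04 and 0.07. Over all genes in library 1 the 95th percentile of r was 0.077. The 10 were picked as the highest of 8079 genes, so part of their height follows from the choice. Whether the lower of them, or the return of Apoe and Lyz2, stand beyond counting error was not tested. These values are descriptions of 408 cells of 1 library, with no test.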
